A study of Mus musculus with 6 samples.

Results

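The genes described here are 42 genes of autophagy and mitophagy, together with the FOXO and TFEB-family regulators that act on them. They were selected by gene symbol from the 37979 genes of the deposited table. Of the 42, 41 were found by their symbol, and *Atg101* was found by its Ensembl identifier (ENSMUSG00000037204), since the table lists it as 9430023L20Rik. All 42 had a mean of at least 0.5 FPKM and were among the 12334 genes tested. FPKM counts fragments per kilobase of a transcript, relative to all mapped fragments of the library.

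RNA was measured in the hindlimb gastrocnemius (GAS) muscles of 3 Kvβ2-/- knockout (Kvβ2 KO) and 3 wildtype (WT) mice, 1 library per mouse, called KO1, KO7, KO8, WT1, WT7 and WT8 after the labels. The KO is a germline null of *Kcnab2*, so the gene is missing from every tissue and not from muscle alone, and both genotypes came from matings of Kvβ2+/- mice. The mice were untreated, and the study describes the young group as male and 20 weeks of age. The question was which muscle transcripts differ when Kvβ2, a cytosolic subunit of voltage-gated potassium channels that binds NADPH, is missing.

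Autophagy encloses a portion of cytoplasm in a double membrane and delivers it to the lysosome. The ULK1 kinase complex starts the process, a phosphatidylinositol 3-kinase complex around Beclin 1 marks the site, ATG2 and ATG9 bring lipid, and a ubiquitin-like conjugation system attaches ATG8 proteins (LC3 and GABARAP) to the membrane, where cargo receptors bind them. In skeletal muscle the pathway clears damaged mitochondria and protein aggregates, and FOXO transcription factors, TFEB and TFE3 increase transcription of its genes when nutrients are short.

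The depth, estimated from the steps of whole fragments in low FPKM values, was 15100000 to 19080000 fragments in KO and 20510000 to 21580000 in WT libraries. Every KO library was therefore less deep than every WT library. The lowest value of any of the 42 genes, 1.38 FPKM of *Atg2a* in WT1, still corresponded to about 28.4 fragments per kilobase. The targeted gene *Kcnab2* was at 0.233, 0.10 and 0.11 FPKM in WT1, WT7 and WT8, at 0.0151 FPKM in KO7, and listed at 0 in KO1 and KO8. These levels lay under the filter of the test. The 12 muscle fiber markers summed to 39853 to 58786 FPKM in WT and 59361 to 65955 FPKM in KO libraries, with the lowest sum in WT1. *Ttn* was listed at 0 in the WT libraries and *Myh4* in all libraries. Fewer cells of a type and less RNA per cell cannot be told apart in such bulk samples.

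None of the 42 genes differed between the genotypes at an adjusted p under 0.05 (limma with Benjamini-Hochberg adjustment over all tested genes), a threshold passed by 40 of the 12334 genes tested, or 0.324%. *Ttn*, with its listed 0 in WT, was 1 of the 40 (limma adjusted p = 7.71e-09). Among the 12092 genes above 0 in every library, which include all 42 members, 1 gene passed and again no member. In the test of all 12334 genes, the lowest adjusted p of a member was 0.0716, for *Map1lc3a* (limma). At an unadjusted p under 0.05, 9 members were higher and 4 were lower in KO muscle, 21.4% and 9.52% of the 42, beside 15.3% and 10.9% of all tested genes. With quantile normalization the counts were 9 and 5 members, beside 13.1% and 14.7% of all tested genes. The 9 higher genes were *Atg101*, *Atg2a*, *Atg9a*, *Atg4d*, *Map1lc3a*, *Map1lc3b*, *Gabarapl1*, *Tfeb* and *Tfe3*, and the 4 lower genes were *Rb1cc1*, *Atg5*, *Atg12* and *Gabarapl2*. The other 29 members passed neither threshold. In 10 members every KO library lay above every WT library and in 5 every KO library lay below, which was the case for 18.3% and 16.2% of all tested genes. The median log2 fold change was 0.10 over the members and 0.01 over all tested genes.

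These counts moved with single libraries and with the handling of the libraries. The 9 higher genes became 4 without KO8 and 5 without WT7, while the share of all tested genes went from 15.3% to 11.7% and 11.8%. The 4 lower genes became 2 without KO1, WT7 or WT8, where the share of all tested genes was 10.9%, 6.41% and 8.71%, and 1 without KO7, where it was 6.88%. Without WT1 the median fold change of the members was 0.05. Array weights, which give each library its own precision and here gave WT7 a weight of 6.12 and WT1 one of 0.355, called 9 members and 3147 of all tested genes at an adjusted p under 0.05.

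**Figure D1:**
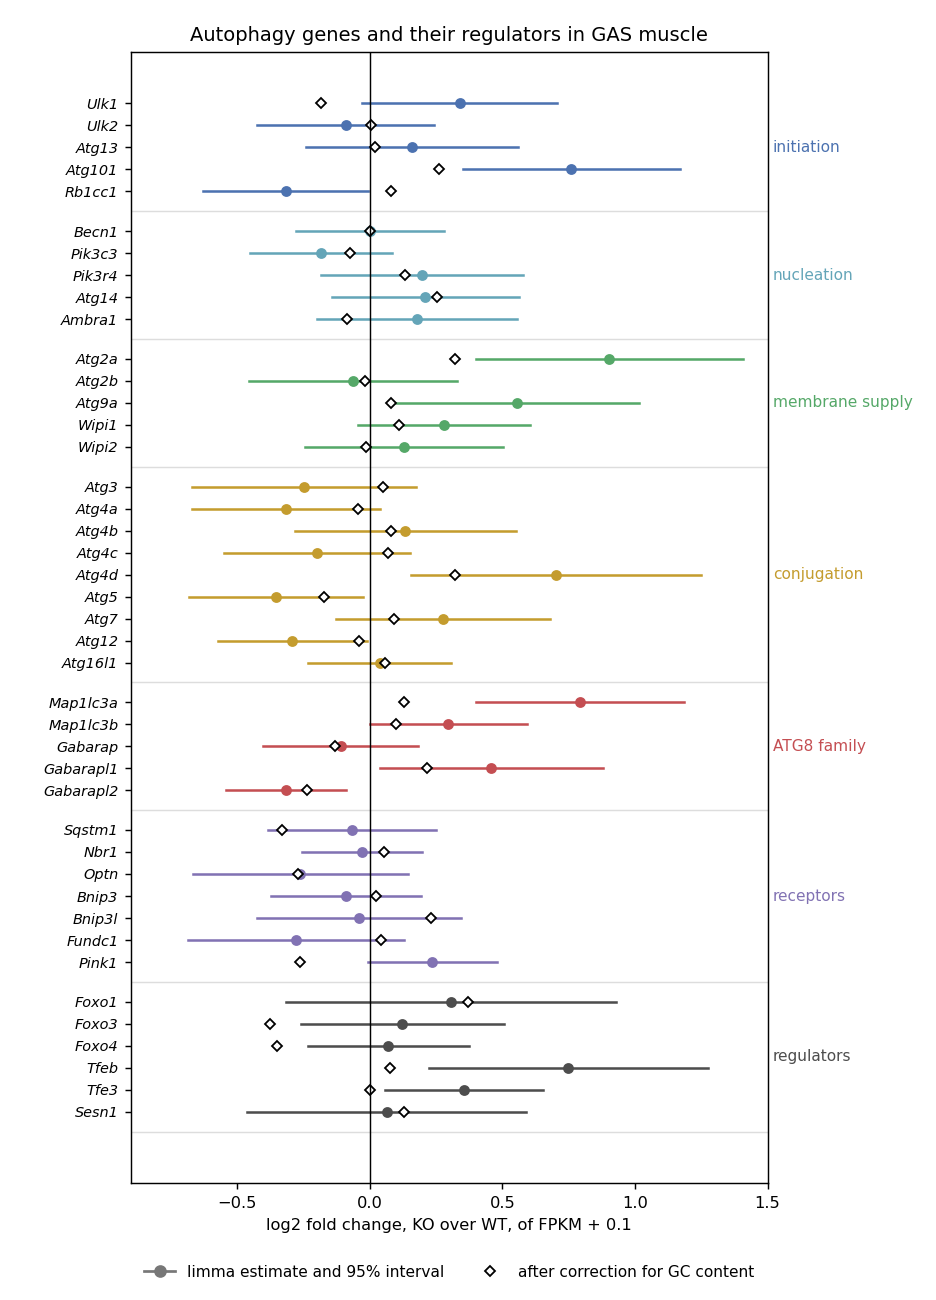
Log2 fold change (KO over WT) of the 42 genes on the log2(FPKM + 0.1) scale, grouped by role. Filled circles and bars are limma estimates with 95% intervals from 3 KO and 3 WT libraries. Open diamonds are the estimates after correction for GC content, and the members furthest to the right (*Atg2a*, *Map1lc3a*, *Atg101* and *Tfeb*) have diamonds between 0.08 and 0.32.

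The sign of the fold change followed the GC content of the transcripts, in the members as in the whole table. All 7 members with a GC content under 45% had negative fold changes, with a median of -0.28, and the 2609 tested genes of that range had a median of -0.30. All 9 members between 55% and 60% had positive fold changes, with a median of 0.36 beside 0.45 for the 2342 genes of that range. *Map1lc3a* and *Tfeb*, the only members above 60%, had a median of 0.77 beside 0.68 for 359 genes. Between 45% and 50% the medians were -0.06 for 11 members and -0.11 for all genes, and between 50% and 55% they were 0.16 for 13 members and 0.14 for all genes. Across the 42 genes, which share the same 6 libraries, the Pearson correlation of GC content and fold change was 0.83, and across the 11985 tested genes with a known GC content it was 0.43, both given as descriptions.

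**Figure D2:**
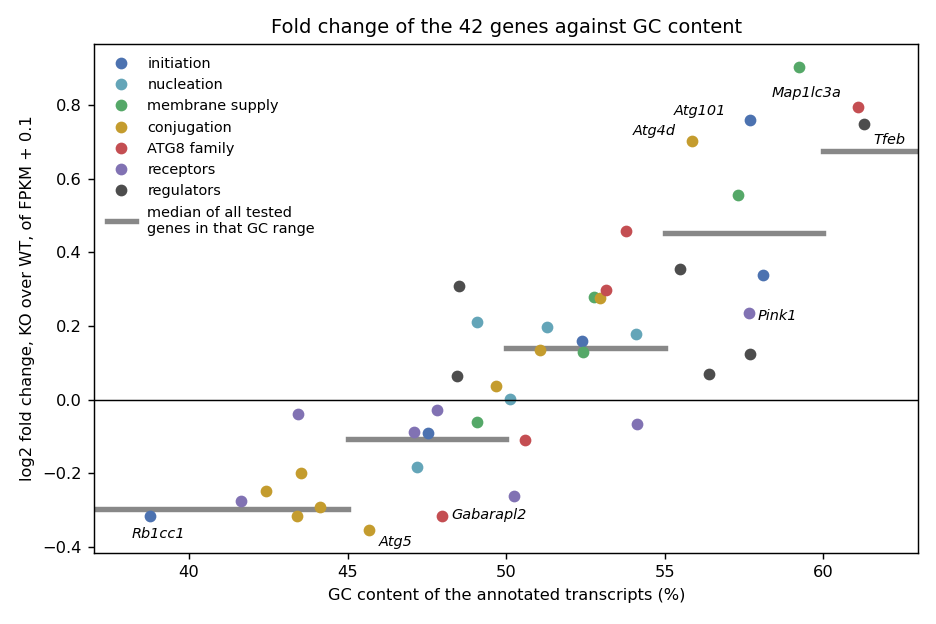
Log2 fold change (KO over WT) on the log2(FPKM + 0.1) scale against the GC content of the annotated transcripts in percent, with 1 point per gene coloured by role. Grey bars are the medians of all tested genes in each range of GC content. The points climb from *Rb1cc1* at 38.8% and -0.32 to *Tfeb* at 61.3% and 0.75, along the grey bars.

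WT1 stood apart in this respect. For the 11 members with a GC content of 55% or more, the median of its deviations from the 6-library mean was -0.73 on the log2 scale. WT7 and WT8 were at -0.08 and -0.10, and the KO libraries were between 0.19 and 0.30. For the 7 members under 45% the WT libraries lay between 0.03 and 0.21 and the KO libraries between -0.30 and -0.03. Subtracting a smooth curve of each library's deviation on GC content removes all that follows GC content, whatever its source. Afterwards no member was higher in KO at an unadjusted p under 0.05, beside 5.33% of the 11985 genes with a known GC content, and 2 members (*Gabarapl2* and *Foxo4*) were lower, beside 5.40%. The sign of the fold change was the opposite in 15 of the 42 members, and the correlation with GC content was then -0.06. A genotype effect that follows GC content and a library effect that follows it cannot be told apart in these libraries. Corrected values are therefore given beside the fold changes below.

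**Figure D3:**
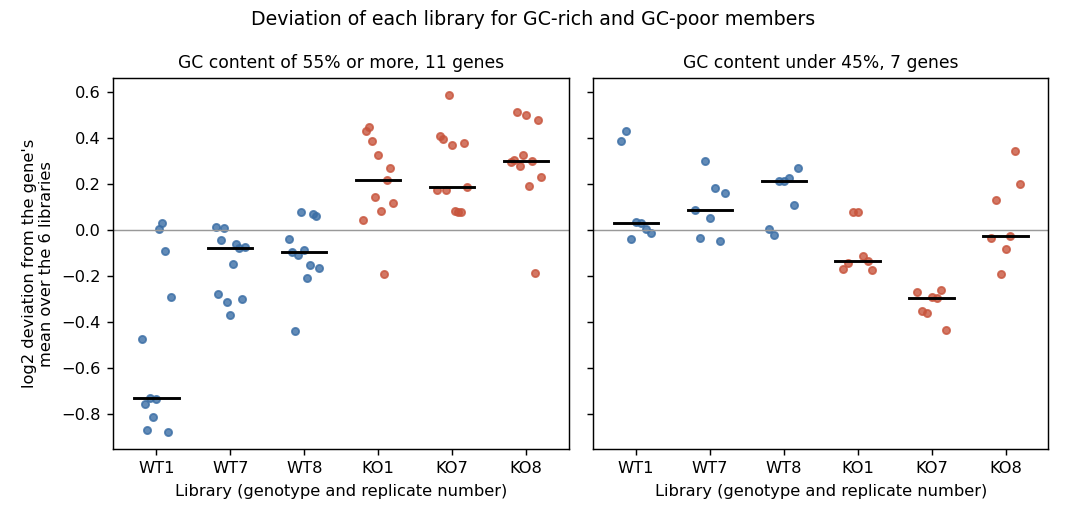
Deviation of each library from a gene's mean over the 6 libraries, in log2(FPKM + 0.1), for the 11 members with a GC content of 55% or more and the 7 members under 45%. Points are genes and black lines are medians. The GC-rich genes sit lowest in WT1 (median -0.73) and at medians of 0.19 to 0.30 in the KO libraries, and the GC-poor genes show the opposite order of genotypes.

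Among the initiation genes, *Atg101* (chromosome 15, 101284272 to 101290945 on the plus strand of GRCm38), which stabilizes ATG13 in the ULK complex, was at 7.11, 9.94 and 11.3 FPKM in WT1, WT7 and WT8. It was at 16.3, 16.1 and 15.0 FPKM in KO1, KO7 and KO8. The genotypes did not overlap, and the KO mean was 1.67 times the WT mean, 15.8 ± 0.735 against 9.45 ± 2.14 FPKM (SD, n = 3). The log2 fold change was 0.76 (standard error 0.18, limma adjusted p = 0.0751), and 0.26 after correction for GC content. *Rb1cc1*, which encodes FIP200, the scaffold of the complex, was at 40.2, 32.6 and 30.7 FPKM in WT1, WT7 and WT8 and at 27.3, 25.5 and 29.9 FPKM in KO1, KO7 and KO8. All KO values lay under all WT values, and the fold change on the log2 scale was -0.32 (standard error 0.13, limma adjusted p = 0.187). Without WT1 it was -0.20, and the corrected value was 0.08. *Rb1cc1* is the member with the lowest GC content. The kinase genes *Ulk1* and *Ulk2* and the adaptor *Atg13* passed no threshold. *Ulk1* was at 7.70 to 10.8 FPKM in WT and 11.1 to 13.2 FPKM in KO muscle, without overlap, and its log2 fold change of 0.34 was 0.19 without WT1 and -0.19 after the correction. *Ulk2* was the more abundant of the paralogs, at 24.5 to 34.2 FPKM over all libraries.

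The nucleation genes had fold changes between -0.18 and 0.21. *Becn1*, which encodes Beclin 1, had means of 49.6 ± 5.43 and 49.5 ± 3.42 FPKM in WT and KO muscle (SD, n = 3), and its log2 fold change of 0.00 (also when corrected) had a 95% interval from -0.28 to 0.28. *Pik3c3*, the lipid kinase, was at 5.52 to 5.67 FPKM in WT and 4.67 to 5.43 FPKM in KO muscle (log2 fold change -0.18, corrected -0.08). *Pik3r4*, *Atg14* and *Ambra1*, which encode its regulatory subunit, its autophagy-specific subunit and a scaffold, had fold changes of 0.20, 0.21 and 0.18, corrected values of 0.13, 0.25 and -0.09, and overlapping genotypes. None of the 5 passed an unadjusted threshold, before or after the correction.

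Of the membrane supply genes, *Atg2a*, the gene of a lipid transfer protein, and *Atg9a*, that of a lipid scramblase, had the largest fold changes. *Atg2a* (chromosome 19, 6241668 to 6262335, plus strand) was at 1.38, 2.54 and 1.90 FPKM in WT1, WT7 and WT8 and at 3.60, 3.47 and 3.78 FPKM in KO1, KO7 and KO8. It had the largest fold change of the 42 genes on the log2 scale, 0.90 (standard error 0.22, limma adjusted p = 0.0785), or a mean 1.86 times higher in KO muscle. Its paralog *Atg2b* overlapped between the genotypes, at 3.33 to 4.93 FPKM in WT and 3.68 to 4.21 FPKM in KO muscle, so *Atg2b* exceeded *Atg2a* in all WT libraries and in all KO libraries. *Atg9a* was at 16.6, 27.8 and 25.5 FPKM in WT1, WT7 and WT8 and at 36.1, 31.2 and 33.5 FPKM in KO1, KO7 and KO8, and the fold change on the log2 scale was 0.56 (standard error 0.20, limma adjusted p = 0.141). Without WT1, the lowest library for both, the fold changes were 0.69 for *Atg2a* and 0.33 for *Atg9a*. Corrected for GC content they were 0.32 and 0.08. *Wipi1* and *Wipi2*, which bind the phosphoinositide made at the site, overlapped between the genotypes, with fold changes of 0.28 and 0.13 (corrected 0.11 and -0.01).

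The 9 conjugation genes had fold changes in both directions. *Atg5* and *Atg12*, whose products are joined to each other in the conjugate that places ATG8 proteins on the membrane, were each lower in all KO libraries than in all WT libraries. *Atg5* was at 6.63, 5.29 and 5.86 FPKM in WT1, WT7 and WT8 and at 4.5, 4.15 and 5.20 FPKM in KO1, KO7 and KO8, and the fold change on the log2 scale was -0.35 (standard error 0.14, limma adjusted p = 0.17). *Atg12* was at 11.6, 12.8 and 13.2 FPKM in the 3 WT libraries and at 10.4, 9.17 and 11.1 FPKM in the 3 KO libraries, in the same order, and the fold change on the log2 scale was -0.29 (standard error 0.12, limma adjusted p = 0.179). Corrected values were -0.17 and -0.04. Their partner *Atg16l1* had a fold change of 0.04, with a 95% interval from -0.23 to 0.31 and a corrected value of 0.06. *Atg7*, the E1-like enzyme, and *Atg3*, the E2-like enzyme, had fold changes of 0.28 and -0.25 with overlapping genotypes, and 0.09 and 0.05 after the correction.

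The ATG4 proteases trim the ATG8 precursors and later release ATG8 proteins from the membrane. *Atg4d* (chromosome 9, 21265293 to 21277772, plus strand) was at 3.70, 5.28 and 6.95 FPKM in WT1, WT7 and WT8 and at 7.29, 9.94 and 8.29 FPKM in KO1, KO7 and KO8. The genotypes were apart by less than the spread within either, and the log2 fold change was 0.70 (standard error 0.23, limma adjusted p = 0.126), or 0.32 corrected. *Atg4a*, the most abundant of the 4 genes, had means of 18.8 ± 2.24 and 15.1 ± 2.37 FPKM in WT and KO muscle (SD, n = 3) and overlapped. Per length, *Atg4a* made up 53.2% to 58.6% of the ATG4 sum in WT and 41.4% to 50.6% in KO libraries, while *Atg4d* made up 13.3% to 19.1% and 20.8% to 31.6%. The GC content of the annotated transcripts was 43.4% for *Atg4a* and 55.9% for *Atg4d*. *Atg4b* and *Atg4c* overlapped between the genotypes, with fold changes of 0.13 and -0.20 (corrected 0.08 and 0.07), and that of *Atg4a* was -0.32 (corrected -0.04).

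**Figure D4:**
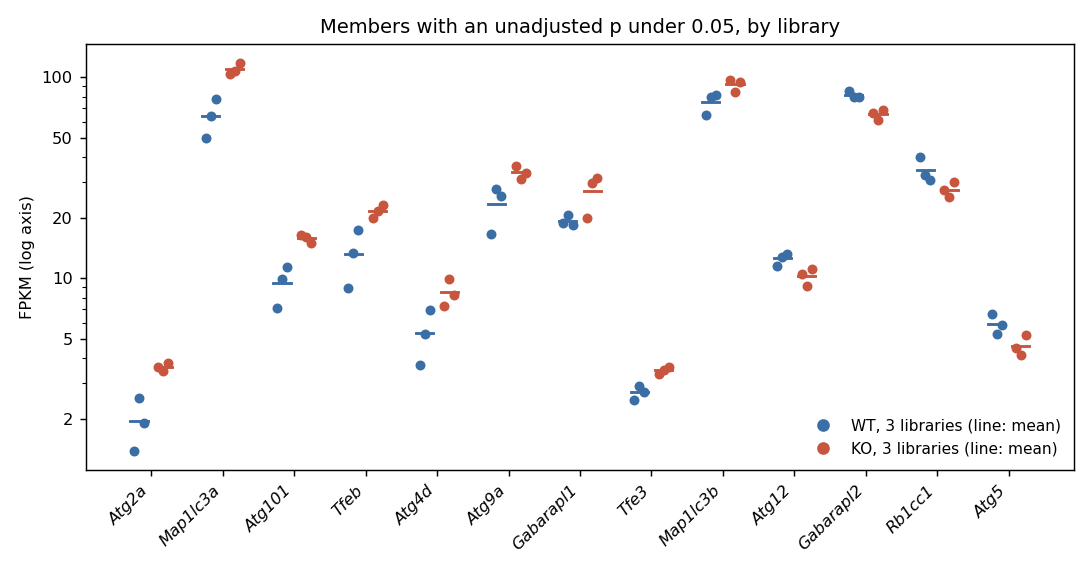
FPKM on a log axis in each of the 3 WT and 3 KO libraries for the 13 members with an unadjusted p under 0.05, ordered by fold change. Points are libraries and short lines are means. *Gabarapl1* is the only gene shown in which a KO library (KO1, 19.9 FPKM) lies inside the WT range.

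The ATG8 family held the member with the lowest p. The last 60 coding bases before the stop codon of its 5 genes, from the principal transcripts of GENCODE vM21 on GRCm38, are shown because ATG4 processes this end of the proteins and because the fold changes followed base composition. Capitals mark G and C.
Map1lc3a (chromosome 2, plus strand): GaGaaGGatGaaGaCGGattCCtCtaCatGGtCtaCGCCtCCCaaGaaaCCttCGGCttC
Map1lc3b (chromosome 8, plus strand): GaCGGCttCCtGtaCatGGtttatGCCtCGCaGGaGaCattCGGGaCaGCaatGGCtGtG
Gabarap (chromosome 11, plus strand): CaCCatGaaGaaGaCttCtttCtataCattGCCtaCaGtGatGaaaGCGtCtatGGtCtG
Gabarapl1 (chromosome 6, plus strand): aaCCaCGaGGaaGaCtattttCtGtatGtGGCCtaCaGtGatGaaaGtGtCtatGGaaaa
Gabarapl2 (chromosome 8, plus strand): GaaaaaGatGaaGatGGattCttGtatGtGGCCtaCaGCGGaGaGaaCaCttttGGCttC
G and C made up 51.7% and 55% of these bases in *Map1lc3a* and *Map1lc3b*, and 40.0% to 43.3% in the 3 GABARAP genes. Over all annotated transcripts the GC content was 61.1% for *Map1lc3a*, 53.2% for *Map1lc3b*, 50.6% for *Gabarap*, 53.8% for *Gabarapl1* and 48.0% for *Gabarapl2*.

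*Map1lc3a* (chromosome 2, 155276297 to 155278073), which encodes LC3A, was at 49.7, 64.1 and 78.0 FPKM in WT1, WT7 and WT8 and at 104, 107 and 117 FPKM in KO1, KO7 and KO8. The lowest KO value exceeded the highest WT value, and the mean was 1.71 times higher in KO muscle. The log2 fold change was 0.79 (standard error 0.17, limma adjusted p = 0.0716), 0.62 without WT1 and 0.13 after correction for GC content. *Map1lc3b*, which encodes LC3B, was at 64.6, 80.0 and 81.0 FPKM in the 3 WT libraries and at 97.2, 84.3 and 94.7 FPKM in the 3 KO libraries, in the same order, and the fold change on the log2 scale was 0.30 (standard error 0.13, limma adjusted p = 0.189). Without WT1 it was 0.19, and the corrected value was 0.10.

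*Gabarapl1* was at 18.9, 20.5 and 18.4 FPKM in WT1, WT7 and WT8 and at 19.9, 29.6 and 31.4 FPKM in KO1, KO7 and KO8. KO7 and KO8 lay above the WT libraries and KO1 among them, and the fold change on the log2 scale was 0.46 (standard error 0.18, limma adjusted p = 0.164), 0.22 corrected. *Gabarap* was at 131, 108 and 112 FPKM in the 3 WT libraries and at 102, 101 and 121 FPKM in the 3 KO libraries, in the same order. The genotypes overlapped, with a fold change of -0.11 (corrected -0.13). *Gabarapl2* (chromosome 8, 111940703 to 111953612), which encodes GATE-16, was lower in KO at an unadjusted p under 0.05 both before and after the correction for GC content. It was at 84.9, 79.9 and 79.5 FPKM in the 3 WT libraries and at 66.3, 61.4 and 68.7 FPKM in the 3 KO libraries, in the same order, and the genotypes were apart. Its log2 fold change was -0.32 (standard error 0.10, limma adjusted p = 0.109), and -0.24 after the correction (standard error 0.09, limma adjusted p = 0.412). The uncorrected fold change stayed between -0.35 and -0.27 when any library was left out. With the correction and a block on the replicate number together, *Gabarapl2* did not pass an unadjusted p under 0.05.

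Within the family, the make-up of the transcripts differed between the genotypes, given as a description since the genes share libraries. The sum was 349 to 369 FPKM in WT and 384 to 433 FPKM in KO libraries. *Map1lc3a* made up 14.2%, 18.2% and 21.2% of it in WT1, WT7 and WT8, and 26.7%, 27.8% and 27.0% in KO replicates. *Gabarapl2* made up 21.6% to 24.3% in WT and 15.9% to 17.0% in KO libraries, and *Gabarap* 30.3% to 37.5% and 26.2% to 27.9%. *Gabarap* was the most abundant of the 5 in every WT library. *Map1lc3a*, at 26.7% and 27.8%, was above *Gabarap* in KO1 and KO7, and at 27.0% it was below it in KO8. These paralogs have related coding sequences, and how fragments shared between them were assigned is not shown by FPKM.

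**Figure D5:**
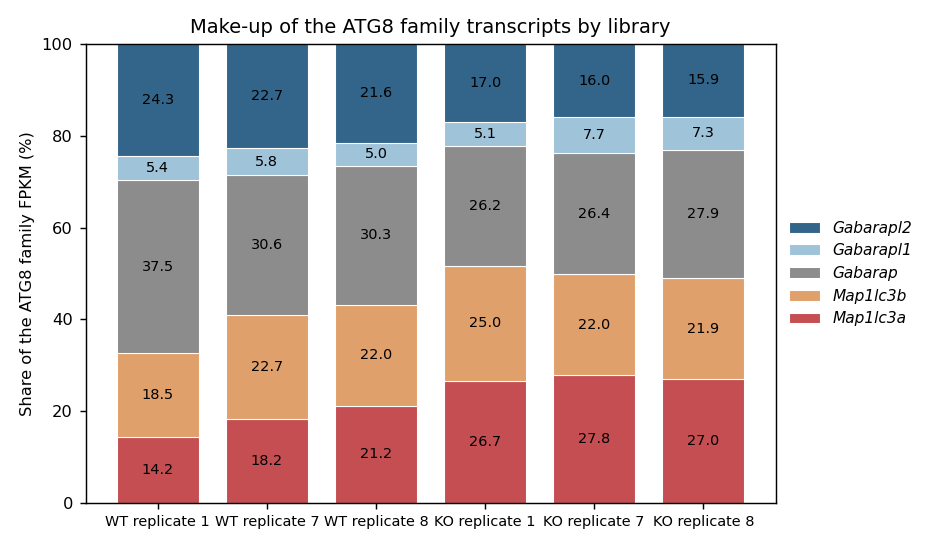
Share of each ATG8 family gene in the summed FPKM of the family, in percent, for each of the 3 WT and 3 KO libraries. Each bar adds to 100%, and the numbers are the shares. The *Map1lc3a* segment is larger (26.7% to 27.8% against 14.2% to 21.2%) and the *Gabarapl2* segment smaller (15.9% to 17.0% against 21.6% to 24.3%) in the KO libraries.

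The receptors and mitophagy genes included the 3 most abundant of the 42 (*Sqstm1*, *Pink1* and *Bnip3*), and none of the 7 passed an unadjusted threshold. *Sqstm1*, which encodes the ubiquitin-binding receptor p62, had 362 to 376 FPKM in WT and 293 to 389.8 FPKM in KO libraries, with a fold change of -0.07 (corrected -0.33). *Pink1*, the kinase that marks depolarized mitochondria, was at 201 to 233 FPKM in WT and 245 to 264 FPKM in KO libraries without overlap. Its log2 fold change of 0.24 had a 95% interval from -0.01 to 0.48, and the corrected value was -0.26. The outer membrane receptors *Bnip3*, *Bnip3l* and *Fundc1* overlapped between the genotypes, with fold changes of -0.09, -0.04 and -0.28 (corrected 0.02, 0.23 and 0.04). *Pink1* made up 47.6% to 50.3% of the FPKM sum of these 4 genes in WT and 51.1% to 56.4% in KO libraries. The aggregate receptor *Nbr1* had a fold change of -0.03 with a 95% interval from -0.26 to 0.20 (corrected 0.06), and *Optn*, a receptor of damaged mitochondria and bacteria, one of -0.26 (corrected -0.27).

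All 6 regulators had positive fold changes, 3 of which were negative after correction for GC content. *Tfeb* (chromosome 17, 47737030 to 47792419, plus strand), the activator of lysosomal and autophagy genes, was at 8.96, 13.4 and 17.3 FPKM in WT1, WT7 and WT8 and at 20.01, 21.6 and 23.1 FPKM in KO1, KO7 and KO8. The genotypes did not overlap, and WT1 was lowest. The mean was 1.63 times higher in KO muscle, and the fold change on the log2 scale was 0.75 (standard error 0.22, limma adjusted p = 0.106). Without WT1 it was 0.50, and with the correction it was 0.08. *Tfe3*, a relative of *Tfeb* with the same DNA motif, was at 2.49, 2.91 and 2.73 FPKM in the 3 WT libraries and at 3.34, 3.51 and 3.62 FPKM in the 3 KO libraries, in the same order. Its groups were narrow and apart, and the fold change on the log2 scale was 0.36 (standard error 0.13, limma adjusted p = 0.145), but 0.00 after the correction. *Tfeb* and *Tfe3* together summed to 11.4 to 20.003 FPKM in WT and 23.3 to 26.7 FPKM in KO libraries.

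*Foxo4* was the predominant FOXO transcript, at 81.4% to 91.0% of the FPKM sum of *Foxo1*, *Foxo3* and *Foxo4* in every library. It was at 40.2, 40.6 and 44.9 FPKM in WT1, WT7 and WT8 and at 49.8, 45.2 and 37.6 FPKM in KO1, KO7 and KO8, so KO8 lay below the WT libraries. Its log2 fold change of 0.07 became -0.35 after the correction (standard error 0.13, limma adjusted p = 0.424). *Foxo1* was at 3.57, 2.63 and 2.73 FPKM in the 3 WT libraries and at 2.47, 3.91 and 5.12 FPKM in the 3 KO libraries, in the same order. *Foxo3* was at 2.87, 2.68 and 2.51 FPKM in the 3 WT libraries and at 2.44, 2.96 and 3.47 FPKM in the 3 KO libraries, in the same order. The stress-responsive mTORC1 inhibitor *Sesn1*, itself a FOXO target, was at 6.40, 6.39 and 5.64 FPKM in the 3 WT libraries and at 4.403, 7.48 and 8.01 FPKM in the 3 KO libraries, in the same order. In these 3 genes KO1 was lowest and KO8 highest of all libraries, and their fold changes of 0.31, 0.12 and 0.06 came with standard errors of 0.27, 0.16 and 0.23. Corrected for GC content they were 0.37, -0.38 and 0.13. When each library was left out in turn, the uncorrected values ran from 0.07 to 0.59 for *Foxo1*, from 0.0038 to 0.25 for *Foxo3* and from -0.09 to 0.33 for *Sesn1*.

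Promoter sequences were searched for the motifs of these regulators, since *Tfeb* and *Tfe3* were among the genes with an unadjusted p under 0.05. RefSeq promoters (GRCm38.p6, 250 bases before to 50 after a start) were matched for 34 members with 41 promoters. On either strand, the FOXO core GTAAACA was in 1 promoter (2.44%, beside 3.65% of all 32851 promoters), the E-box CACGTG in 5 (12.2%, beside 7.15%), and the CLEAR core TCACGTG, which contains the E-box, in 3 (7.32%, beside 3.77%). These are matches of letters, not measured sites. The windows that hold the CLEAR core and the FOXO core are shown 5′ to 3′ on the strand of the gene, at 1 of the RefSeq starts of each, with the motif in capitals (in *Atg14* and *Sesn1* as its reverse complement).
Atg3 (chr16:45158719-45158778, plus strand): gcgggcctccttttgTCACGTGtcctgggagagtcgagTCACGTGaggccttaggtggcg
Atg7 (chr6:114670936-114670995, plus strand): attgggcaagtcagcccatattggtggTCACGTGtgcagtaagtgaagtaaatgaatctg
Atg14 (chr14:47568415-47568474, minus strand): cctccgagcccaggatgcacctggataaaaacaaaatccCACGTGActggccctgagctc
Sesn1 (chr10:41810554-41810603, plus strand): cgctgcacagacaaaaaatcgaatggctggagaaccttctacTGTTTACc
The 3 genes with a CLEAR core had log2 fold changes of -0.25 (*Atg3*), 0.28 (*Atg7*) and 0.21 (*Atg14*) and overlapping genotypes, and *Sesn1* had 0.06.

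Other genes of the pathway, from lists chosen beside the members, gave no call at an adjusted p under 0.05 (limma). Of 26 other genes of the autophagy machinery, 3 were higher and 1 was lower in KO at an unadjusted p under 0.05. These were 11.5% and 3.85% of the list, both under the 15.3% and 10.9% of all tested genes. After correction for GC content the counts were 0 and 2, beside 5.33% and 5.40% of all genes with a known GC content. *Tex264*, a receptor for the endoplasmic reticulum, had the lowest uncorrected p of the 26, at 6.20 to 9.56 FPKM in WT and 13.0 to 14.3 FPKM in KO libraries. *Tecpr1*, *Wdr45* and *Vmp1* had log2 fold changes of 0.72, 0.42 and -0.31, and corrected values of 0.29, 0.11 and -0.04. Of 15 other receptor and mitophagy genes, 4 were higher (*Fkbp8*, *Mul1*, *Wdfy3* and *Phb2*), or 26.7%, and none was lower. The shares of all tested genes were 15.3% and 10.9%. After the correction the counts were 0 and 1, beside 5.33% and 5.40% of all genes with a known GC content. *Fkbp8*, a mitophagy receptor of the outer membrane, was at 14.2 to 19.96 FPKM in WT and 27.0 to 31.5 FPKM in KO libraries, with a log2 fold change of 0.80 (corrected 0.22).

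Among 32 genes of mTORC1 and its TSC, AMPK and Rag inputs, 8 were higher and 7 lower, or 25.0% and 21.9%. For all tested genes the shares were 15.3% and 10.9%. After the correction the counts were 2 and 3, beside 5.33% and 5.40% of all genes with a known GC content. *Ddit4l*, an inhibitor of mTORC1 signaling in muscle, was at 148, 195 and 208 FPKM in WT1, WT7 and WT8 and at 118, 86.6 and 121 FPKM in KO1, KO7 and KO8. Its log2 fold change of -0.76 (standard error 0.18, limma adjusted p = 0.0785) was -0.67 after the correction (limma adjusted p = 0.306), so the correction changed it by little. *Mtor*, *Lamtor1* and *Lamtor4*, the kinase and parts of its lysosomal anchor, had log2 fold changes of 0.52, 0.45 and 0.60, and corrected values of 0.30, 0.33 and 0.16.

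Of 20 FOXO targets, 4 were higher and 2 lower at an unadjusted p under 0.05, beside 15.3% and 10.9% of all tested genes. After the correction the counts were 4 and 1, beside 5.33% and 5.40% of all genes with a known GC content. *Eif4ebp1*, which encodes the translation repressor 4E-BP1, was at 24.2, 24.0 and 26.2 FPKM in WT1, WT7 and WT8 and at 35.7, 39.0 and 38.2 FPKM in KO1, KO7 and KO8. Its log2 fold change was 0.60 both before and after the correction (limma adjusted p = 0.0667 and 0.155). *Klf15* and *Irs2* had fold changes of 1.07 and 1.63 (corrected 0.75 and 1.19), with *Irs2* at or under 2.55 FPKM in all libraries. *Fbxo31* had a fold change of 0.54 and a corrected value of -0.04, so it was not among the 4 higher genes after the correction. These 4 genes are named for the smallest uncorrected p of the list, and the 2 lower genes are not named. The atrophy ligases *Fbxo32* and *Trim63*, named after their values were seen, ranged widely within both genotypes, from 54.7 to 123 FPKM and from 53.1 to 129 FPKM.

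Of 24 lysosomal TFEB targets, 20 had positive fold changes, beside 6294 of the 12334 tested genes. At an unadjusted p under 0.05, 3 were higher (*Neu1*, *Mcoln1* and *Clcn7*) and 1 was lower (*Rragd*). These were 12.5% and 4.17% of the list, both under the 15.3% and 10.9% of all tested genes. After the correction the counts were 1 and 0, beside 5.33% and 5.40% of all genes with a known GC content. The median log2 fold change of this list was 0.17, and 0.05 corrected. *Rragd*, a Rag GTPase gene that stands in the mTORC1 list too, was at 85.1 to 93.9 FPKM in WT and 56.9 to 81.1 FPKM in KO libraries. Among other family members and cofactors, *Zkscan3*, a repressor of autophagy genes, had a log2 fold change of -0.38 (corrected -0.28), and *Crtc2*, a CREB coactivator, 0.37 (corrected 0.02). *Foxo6* and *Tfec* lay under the filter.

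Markers of other cell types were read beside these results. The 5 adipocyte markers summed to 3.84 to 17.4 FPKM in WT and 18.4 to 83.4 FPKM in KO libraries, highest in KO7. Of these 5, 4 were higher at an unadjusted p under 0.05, beside 15.3% of all tested genes. Macrophage and leukocyte markers summed to 17.3 to 32.9 FPKM in WT and 23.2 to 53.6 FPKM in KO libraries, also highest in KO7, and none of the 5 tested passed. The 5 red blood cell markers summed to 242 to 314 FPKM in WT and 266 to 547 FPKM in KO libraries. Of these, 2 (*Hba-a1* and *Hba-a2*) were higher at an unadjusted p under 0.05, beside the same 15.3%. *Hbb-bs*, *Hbb-bt* and *Alas2* overlapped between the genotypes, with log2 fold changes of 0.23, 0.01 and 0.16. Sums of the macrophage and leukocyte, red blood cell, endothelial, fibroblast, Schwann cell and satellite cell markers overlapped between the genotypes. The part of any of these cell types, or of adipocytes, in the values of the 42 genes was not tested. Without KO7, 6 members were higher and 1 was lower at an unadjusted p under 0.05, beside 11.3% and 6.88% of all tested genes.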

How the data were processed

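Total RNA of GAS muscle was sequenced by the authors from stranded mRNA libraries, 1 per mouse. TopHat (alignment to GRCm38) and Cufflinks (FPKM) made the values (versions not given in the sources used here). The deposited table holds FPKM of 37979 genes in 6 libraries and no counts. Groups were taken from the genotype labels.

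The 12334 genes that averaged 0.5 FPKM or more were tested on log2(FPKM + 0.1) with limma 3.58.1 in R 4.3.3, with a variance trend, two-sided, genotype as the only term, and Benjamini-Hochberg adjustment over all of them. On this scale the fold changes of low genes come out too small. A 3 against 3 exact permutation test cannot give a p under 0.1. GC content is the length-weighted mean over a gene's transcripts in GENCODE vM21, in which 32935 identifiers were found. For each library, a loess curve (span 0.3) of the deviations on GC content was subtracted. Depth came from FPKM steps, of which 89.4% to 93.0% were whole within 0.15 of a fragment. No pair of libraries shared more than 1 of 14983 values, so none was a copy of another.

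Members and lists were chosen with earlier results of these data known. Values in every library are given for members with an unadjusted p under 0.05, the ATG8 family and the 6 regulators, and up to 4 genes are named from each other list by smallest p. The libraries of both genotypes share the numbers 1, 7 and 8, which nothing in the labels ties to a shared litter or batch. Alternatives covered the pseudocount, the filter, scaling, GC content, length, variance model, array weights, a replicate block and leaving out each library. Protein sequences were not used here. Summaries and figures used Python 3.11.15 and matplotlib 3.10.9.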

Additional observations from a re-analysis of the deposited data

How the results depend on the processing

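With array weights, 9 members passed an adjusted p under 0.05 (*Atg101*, *Atg2a*, *Atg4a*, *Atg4d*, *Map1lc3a*, *Gabarapl1*, *Gabarapl2*, *Pink1* and *Tfeb*), as did 3147 of all 12334 tested genes. The fold change of *Gabarap* was then 0.058. In every other alternative 0 members passed (limma). Correction for GC content left 0 members higher and 2 lower at an unadjusted p under 0.05, beside 5.33% and 5.40% of all genes with a known GC content. It left 4 members with no overlap between the genotypes, a count for which the share of all genes was not computed. The corrected log2 fold changes were 0.0813 for *Rb1cc1*, -0.38 for *Foxo3*, -0.35 for *Foxo4* and -0.00043 for *Tfe3*. Length correction gave -0.0188 for *Foxo4* and -0.0205 for *Sesn1*. Without the variance trend 2 members were lower, beside 9.92% of all tested genes. Leaving out each library in turn gave 4 to 10 higher and 1 to 5 lower members. The shares of all tested genes were then 11.3% to 15.5% and 6.41% to 10.9%. Fold changes ran from -0.0211 (without KO1) to 0.18 for *Foxo4* and from -0.0942 (without KO8) to 0.33 for *Sesn1*. The median over the members was 0.05 to 0.11. The pseudocount, the filter on low FPKM and the scaling kept the counts within 1.5 times. The causes were not tested.

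A block on the replicate number gave 9 higher and 2 lower members, beside 14.2% and 8.35% of all tested genes. With the GC correction it gave 0 and 1, beside 4.6% and 4.84%, with the corrected fold changes given above. The 1 lower member was not among those past the unadjusted threshold without block or correction, so it was not *Gabarapl2* (limma adjusted p = 0.531). Deviations of same-numbered libraries correlated at -0.03, -0.08 and 0.03, and those of differently numbered libraries at -0.07 to 0.09. With so few libraries, these values cannot show whether a number stands for a shared litter or batch. With 3 libraries a genotype, and FPKM without counts, changes of the size seen here mostly lay within the error.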

Other observations

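*Foxo6*, a FOXO gene under the filter of the test, was at 0.256, 0.198 and 0.246 FPKM in WT1, WT7 and WT8. It was higher in each KO library, with 0.872, 0.546 and 0.455 FPKM in KO1, KO7 and KO8. With a GC content of 69.1%, it was richer in G and C than any of the 42 genes, of which *Tfeb* was highest at 61.3%.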
